A study of Rattus norvegicus with 9 samples.

Results

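The miR-17/92 cluster and its relative miR-363 were followed in rat serum as 9 mature miRNAs: miR-17-1-3p, miR-18a-5p, miR-18a-3p, miR-19a-3p, miR-20a-5p, miR-19b-3p, miR-92a-3p, miR-92a-1-5p and miR-363-3p. They were chosen by name from a count table of 567 mature miRNAs, and all 9 were found in it. The animals were adult wild-type male Wistar rats, randomly assigned to 3 groups, with 3 serum libraries each. In the early group (EPD) rotenone, a mitochondrial complex I inhibitor used to model Parkinson's disease, was injected into the peritoneum at a daily dose of 2 mg per kg over 10 days. The late group (LPD) received the same daily dose for more than 40 days, up to a terminal stage. The third group was labelled Control. The treatment label of the Control samples is worded like that of the other groups, and what these animals were injected with is not given in the sources used here. Serum carries RNA released by many cell types, so a change in the number of releasing cells and a change in release per cell cannot be told apart.

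The miR-17/92 cluster is a polycistron: 1 primary transcript is cut into several hairpins, and each hairpin can give a mature miRNA from its 5p and from its 3p arm. Its products are known for promoting proliferation and survival, in part by repressing the pro-apoptotic gene Bcl2l11 (miR-19 and miR-92) and E2F factors and the cell cycle inhibitor Cdkn1a (miR-17 and miR-20a). They are abundant in blood-forming cells. Products of 1 primary transcript need not accumulate alike, since hairpin processing, arm choice, turnover and release differ between them, and for that reason their levels were compared with each other.

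All 9 names matched the RefSeq miRNA table of the GRCr8 rat genome. There the cluster lies on the plus strand of chromosome 15, with 6 hairpin genes in the order Mir17, Mir18a, Mir19a, Mir20a, Mir19b1 and Mir92a1. From the first base of miR-17-5p to the last of miR-92a-3p it spans 762 bases (chr15:98587861-98588622). miR-363-3p comes from a paralogous cluster on the minus strand of chromosome X, which holds Mir106a, Mir20b, Mir19b2, Mir92a2 and Mir363 within 850 bases (chrX:137342788-137343637). miR-19b-3p and miR-92a-3p are each encoded with the same mature sequence in both clusters, so their counts cannot be assigned to 1 transcript. The other 7 have 1 locus each. The 6 sequences below, 5′ to 3′ with the seed (bases 2 to 8, which pair with the target) in capitals, are those whose levels are set against each other.
miR-20a-5p: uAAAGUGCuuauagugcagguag
miR-18a-5p: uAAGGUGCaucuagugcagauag
miR-19a-3p: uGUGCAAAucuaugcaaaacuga
miR-19b-3p: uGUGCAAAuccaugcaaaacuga
miR-92a-3p: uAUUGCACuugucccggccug
miR-363-3p: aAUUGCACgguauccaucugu

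miR-19a-3p and miR-19b-3p have the same seed and length and differ at 1 of 23 positions, U11C (miR-19a base, position from the 5′ end, miR-19b base). Reads of this pair are told apart by that base alone, and how the counting treated mismatches is not given in the sources used here. miR-92a-3p and miR-363-3p share the seed and differ at 11 of 21 positions. G and C made up 57.1% of miR-92a-3p, 39.1% of miR-19b-3p and of miR-20a-5p, and 34.8% of miR-19a-3p.

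Depth differed between the groups, which limits what can be said of the scarcer products. Control libraries totalled 1108167 to 1539557 counts, EPD libraries 1136537 to 1668807 and LPD libraries 132609 to 305019. With the mean profile of the Control and EPD libraries, the number of miRNAs without any count corresponded to 8315, 4279 and 10755 sampled molecules in LPD 1, LPD 2 and LPD 3, each counted 36.7, 49.1 and 12.3 times. The same estimate gave 1.07 to 3.09 counts per molecule in the other libraries. It assumes that LPD serum had that profile. Levels are given as CPM, counts scaled to 1000000 per library, with TMM-scaled library sizes, and 3 such molecules stood for 244 to 662 CPM in LPD but for 2.17 to 11.8 CPM in Control.

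In Control serum the most abundant product was miR-92a-3p, which represses Bcl2l11 and Itga5, with 2355, 1897 and 2163 CPM in the 3 libraries. miR-19b-3p came next with 1508, 1873 and 2020 CPM, and the ranges of the pair overlapped. miR-20a-5p had 656, 402 and 783 CPM and miR-19a-3p 174, 171 and 254 CPM, each below every value of the one before it. miR-363-3p (54.9 to 92.4 CPM), miR-18a-5p (39.6 to 58.6) and miR-17-1-3p (26.8 to 56.0) formed a lower tier in which neighbours overlapped. miR-18a-3p (10.6 to 15.3 CPM) and miR-92a-1-5p (3.83 to 8.08), the opposite arms of the miR-18a and miR-92a-1 hairpins, were the scarcest. These are levels by read count, and differences between miRNAs in how well they enter a library are part of them.

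**Figure D1:**
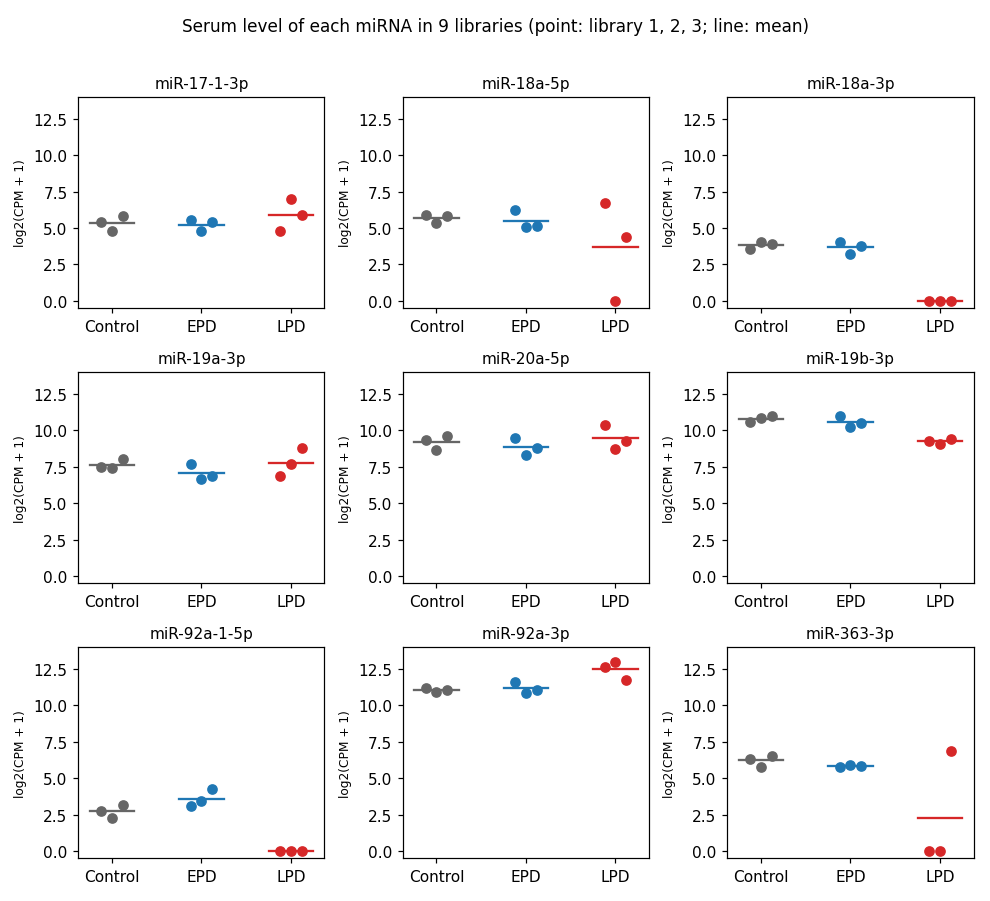
Level of each of the 9 miRNAs, as log2(CPM + 1) on the vertical axis, in the 3 libraries of Control, EPD and LPD (points, in the order of library 1, 2 and 3) with the group mean (line). In LPD, miR-92a-3p lies above and miR-19b-3p below all libraries of the other groups, miR-18a-3p and miR-92a-1-5p are at 0, and miR-18a-5p and miR-363-3p are spread widely.

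After 10 days of rotenone the ranges of all 9 products overlapped with Control, while 12.9% of the 294 miRNAs tested had ranges apart (4.76% higher and 8.16% lower). miR-92a-3p had 3145, 1804 and 2165 CPM in the EPD libraries and miR-19b-3p 2011, 1219 and 1439 CPM. The log2 fold changes were 0.15 (SE 0.35) for miR-92a-3p and -0.21 (SE 0.30) for miR-19b-3p. The others lay between -0.50 (miR-19a-3p, SE 0.67) and 0.98 (miR-92a-1-5p, SE 0.54). EPD 1 was the highest EPD library for miR-92a-3p, and without it that change was -0.05. None of the 9 was called by edgeR's quasi-likelihood test (adjusted p = 0.995 each, and 0 of 9 at an unadjusted p under 0.05). Over all miRNAs tested, 0% were called in this comparison (11 of 294 at an unadjusted p under 0.05), and DESeq2 and limma-voom also called none of the 9.

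In the LPD libraries 2 abundant products moved in opposite directions. miR-92a-3p had 6489, 8125 and 3474 CPM, all above the highest Control (2355) and the highest EPD library (3145). It rose from 2138 ± 230 CPM in Control to 6029 ± 2359 in LPD (SD, n = 3 each), a log2 fold change of 1.50 (SE 0.36) or 2.82-fold (edgeR adjusted p = 0.0102). miR-19b-3p had 613, 540 and 672 CPM in LPD, all below the lowest Control (1508) and the lowest EPD library (1219). It fell from 1800 ± 264 to 608 ± 66.4 CPM, a log2 fold change of -1.57 (SE 0.31), 2.96-fold lower (edgeR adjusted p = 0.0055). Both kept their call in all 18 alternatives run. The estimated molecules behind these levels were 53.4, 36.8 and 42.7 for miR-92a-3p, and 5.04, 2.45 and 8.27 for miR-19b-3p, in LPD 1, LPD 2 and LPD 3.

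Against EPD the same products were called in the same directions, with the LPD libraries shared between both comparisons. miR-92a-3p was higher in LPD by a log2 fold change of 1.35 (SE 0.36, edgeR adjusted p = 0.0171) over 2372 ± 694 CPM in EPD. This call was lost without EPD 2 (adjusted p = 0.0658), EPD 3 (0.0572) or LPD 2 (0.0776). miR-19b-3p was lower by -1.36 (SE 0.31, edgeR adjusted p = 0.00926) than its 1556 ± 409 CPM in EPD. That call was lost with limma-voom (0.057) and when only miRNAs counted in every library were fitted (0.0672).

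**Figure D2:**
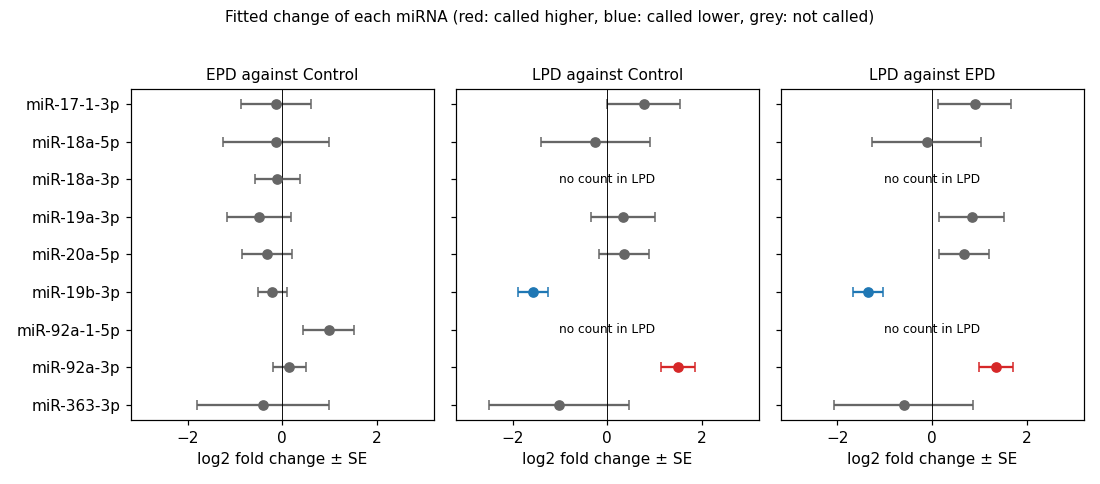
Fitted log2 fold change (horizontal axis, points) with its SE (bars) of each of the 9 miRNAs in the 3 comparisons. In both LPD panels miR-92a-3p is called higher (1.50 and 1.35) and miR-19b-3p lower (-1.57 and -1.36), and no fold is drawn for the 2 miRNAs with no count in LPD.

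Of the 9, LPD against Control called 1 higher and 3 lower, where 37.1% of the 294 tested miRNAs were called (4.42% higher and 32.7% lower). LPD against EPD also called 1 higher and 3 lower, with 36.7% of all tested miRNAs called (4.08% higher and 32.7% lower). The CPM ranges of 4 of the 9, the same 4 that were called, did not overlap between LPD and Control, against 48.3% of all tested miRNAs (6.46% higher and 41.8% lower). Between LPD and EPD they did not overlap for the same 4, against 52.4% of all (6.8% higher and 45.6% lower). All 9 passed the filter on low counts, miR-18a-3p and miR-92a-1-5p only through Control and EPD. Among the 5 with counts in every library 2 were called, beside 31.5% of the 124 such miRNAs, and the median log2 fold change was 0.35 in LPD against Control, beside -0.21 over the 124.

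The remaining products of the cluster were not called in LPD, and their libraries disagreed. miR-20a-5p, which represses Cdkn1a, had 1312, 409 and 626 CPM in LPD against 402 to 783 in Control (log2 fold change 0.35, SE 0.53, edgeR adjusted p = 0.639). Only LPD 1 lay above the Control range, and without LPD 1 the change was -0.09. miR-19a-3p, the twin of miR-19b-3p by seed, had 113, 207 and 442 CPM in LPD against 171 to 254 in Control (0.34, SE 0.68, edgeR adjusted p = 0.723). Here LPD 3 was the high library and LPD 1, the highest for miR-20a-5p, the low one, and without LPD 3 the change was -0.06. miR-17-1-3p, the 3p arm of the first hairpin, had 26.5, 126 and 59.3 CPM in LPD from 8, 28 and 9 counts (0.77, SE 0.76, edgeR adjusted p = 0.478). In each of these miRNAs the LPD counts came to few estimated molecules: 10.8, 1.86 and 7.71 for miR-20a-5p, 0.927, 0.938 and 5.43 for miR-19a-3p, and under 1 in every LPD library for miR-17-1-3p.

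miR-18a-5p and miR-363-3p were counted in only some LPD libraries. miR-18a-5p had 32, 0 and 3 counts, or 106, 0 and 19.8 CPM, against 39.6 to 58.6 CPM in Control (log2 fold change -0.25, SE 1.15, edgeR adjusted p = 0.874). The change was -2.42 without LPD 1 (edgeR adjusted p = 0.0938), 0.43 without LPD 2 and 0.20 without LPD 3. miR-363-3p had 0, 0 and 18 counts, or 0, 0 and 119 CPM, against 54.9 to 92.4 CPM in Control and 53.3 to 60.1 in EPD (-1.01, SE 1.47, edgeR adjusted p = 0.631). LPD 3 alone carried all of its LPD counts and lay above every other library. Those 18 counts came to 1.46 estimated molecules, and the LPD counts of miR-18a-5p to 0.872, 0 and 0.243. With LPD 3 left out miR-363-3p had no LPD count and was called lower, on no LPD count (edgeR adjusted p = 0.00469).

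The 2 opposite arms miR-18a-3p and miR-92a-1-5p had no count in any LPD library. miR-18a-3p had 13, 12 and 24 counts in Control and 23, 11 and 20 in EPD. miR-92a-1-5p had 7, 3 and 14 counts in Control and 11, 13 and 29 in EPD. Both were called lower in LPD against Control (edgeR adjusted p = 0.00522 for miR-18a-3p and 0.0177 for miR-92a-1-5p) and against EPD (0.00591 and 0.00822). The call of miR-92a-1-5p against Control was lost with DESeq2 (0.153), with limma-voom (0.0557), with no filter (0.0686) and without Control 3 (0.0724), LPD 1 (0.0938) or LPD 2 (0.064). A count of 0 allows up to 3 counts, which stood for 9.94 to 19.8 CPM in the LPD libraries by counting error only, and 3 estimated molecules stood for far more. The Control means, 13.3 ± 2.43 CPM for miR-18a-3p and 5.87 ± 2.13 CPM for miR-92a-1-5p, lie within or below the first range and below the second. A fall and the lower depth of LPD cannot be told apart here, and no fold is given.

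The discordance was then measured within each library, as the ratio of the counts of 2 products, which no library scaling can alter. For each count of miR-19b-3p, the Control libraries held 1.56, 1.01 and 1.07 counts of miR-92a-3p, and 1.56, 1.48 and 1.50 were held by EPD. In LPD the same ratio was 10.6, 15.1 and 5.17. Control and EPD overlapped, and all 3 LPD libraries lay above both groups. The log2 ratio was 0.25 ± 0.34 in Control, 0.60 ± 0.04 in EPD and 3.23 ± 0.79 in LPD (SD, n = 3 each).

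With each miRNA expressed relative to miR-19b-3p, limma tested the change of that ratio over 293 miRNAs. miR-19b-3p was taken as the denominator because it had the clearest fall in earlier results of these data. Higher ratios to it in LPD were therefore to be expected, and the calls below share that 1 fall. The ratio of miR-92a-3p to miR-19b-3p was higher in LPD than in Control by 2.97 on the log2 scale (SE 0.41, limma adjusted p = 0.00285), 7.84-fold. It was higher than in EPD by 2.62 (SE 0.41, limma adjusted p = 0.0048), 6.16-fold. Both calls held in all 16 alternatives, with adjusted p up to 0.0169 and 0.0218. Of the other 8 members, 2 were called higher relative to miR-19b-3p in LPD against Control and 3 in LPD against EPD, and 0 lower. In these fits 31.4% of all miRNAs were called in either comparison, with 18.4% and 17.4% higher. In EPD against Control the ratio differed by 0.35 (SE 0.41, limma adjusted p = 0.996), and 0% of miRNAs were called.

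miR-20a-5p, whose hairpin lies just upstream of that of miR-19b-3p on chromosome 15, also separated from it. There were 0.435, 0.215 and 0.388 counts of miR-20a-5p for each count of miR-19b-3p in Control, 0.347, 0.261 and 0.312 in EPD, and 2.14, 0.758 and 0.931 in LPD. All LPD libraries lay above all others. The log2 ratio in LPD exceeded that in Control by 1.79 (SE 0.51, limma adjusted p = 0.0221) and that in EPD by 1.91 (SE 0.51, limma adjusted p = 0.0198). The first call was lost without Control 2 (adjusted p = 0.066), Control 3 (0.053) or LPD 1 (0.0514) and with only the 2 groups in the fit (0.0503), the second without EPD 2 (0.0668) or EPD 3 (0.0578). With miR-20a-5p as the denominator for all miRNAs the same pair was called at adjusted p = 0.0401 and 0.0279, beside 37.5% and 43.3% of all miRNAs (36.9% and 43.3% lower). These calls were lost in 11 and 6 of 16 alternatives.

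For the pair that differs by 1 base, miR-19a-3p had 0.116, 0.0914 and 0.126 counts for each count of miR-19b-3p in Control, 0.104, 0.0822 and 0.0798 in EPD, and 0.184, 0.383 and 0.657 in LPD. Again the LPD libraries did not overlap with the others. Their ratios rest on few estimated molecules, 0.927, 0.938 and 5.43 of miR-19a-3p beside 5.04, 2.45 and 8.27 of miR-19b-3p. The log2 ratio differed by 1.71 in LPD against Control (SE 0.65, limma adjusted p = 0.0702, not called) and was higher by 2.03 in LPD against EPD (SE 0.65, limma adjusted p = 0.0391). The first was called in 4 of 16 alternatives, among them that without LPD 1 (2.19, adjusted p = 0.0125). The latter call was lost in 10 of 16 alternatives, among them those without any 1 of the Control or EPD libraries, LPD 2 or LPD 3 (adjusted p up to 0.114).

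**Figure D3:**
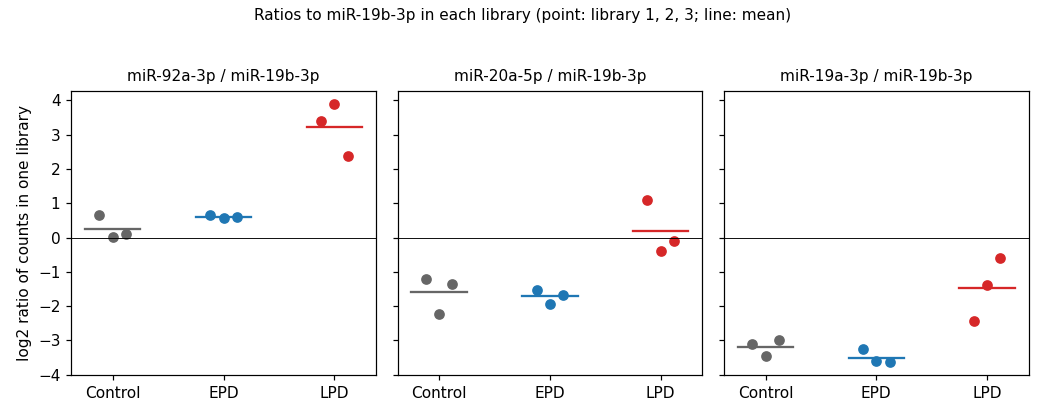
Log2 ratio of the counts of miR-92a-3p, miR-20a-5p and miR-19a-3p to those of miR-19b-3p (vertical axis) in each library of Control, EPD and LPD (points) with group means (lines). In all 3 panels the LPD points lie above all Control and EPD points, furthest for miR-92a-3p (mean 3.23 in LPD against 0.25 in Control). The 3 panels share miR-19b-3p as the denominator, so its fall in LPD raises each of them.

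The ratios that leave miR-19b-3p out were less separated. miR-92a-3p relative to miR-20a-5p differed by 1.18 in LPD against Control (SE 0.65, limma adjusted p = 0.157) and by 0.71 in LPD against EPD (SE 0.65, limma adjusted p = 0.378). The ratio of their counts was 4.95, 19.8 and 5.55 in LPD, above the 3.59, 4.71 and 2.76 of Control but overlapping with EPD. miR-19a-3p relative to miR-20a-5p differed by -0.08 in LPD against Control (SE 1.03, limma adjusted p = 0.946), and its sign changed without Control 2 or LPD 1. Within LPD the log2 ratio of miR-20a-5p to miR-19a-3p had an SD of 1.63, against 0.34 in Control and 0.16 in EPD. The miR-20a-5p fit also called miR-18a-3p lower in LPD against Control and miR-18a-3p and miR-92a-1-5p lower in LPD against EPD. These 2 arms make up the rest of the 2 and 3 of 8 members called in that fit, and their ratios rest on the 0.5 counts added where LPD had none.

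The 4 products with at least 10 counts in every library gave 6 pairs and 18 exact two-sided permutation tests over samples. In LPD against Control 4 of the 6 log2 ratios did not overlap between the groups, in LPD against EPD 3 and in EPD against Control 1. Every one of these gave exact p = 0.1, the smallest that 3 against 3 libraries can reach (adjusted over the 18 tests, 0.225). Those against EPD were all ratios to miR-19b-3p, and the same ratios recurred against Control, so they share 1 member. The remaining pair apart in LPD against Control was miR-92a-3p to miR-20a-5p, which leaves miR-19b-3p out. The share over pairs of all miRNAs was not computed. Of single miRNAs 48.3% and 52.4% had CPM ranges apart in LPD against Control and EPD, which is a different measure. Whether the counts of pairs are particular to the cluster was therefore not tested. The 1 pair apart in EPD against Control was miR-92a-3p to miR-19a-3p, with a log2 ratio of 4.11 ± 0.17 in EPD and 3.44 ± 0.33 in Control. In the limma fits no ratio to miR-19b-3p or miR-20a-5p was called in that comparison.

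The make-up of the cluster was compared next. Among the summed counts of the 8 products found in the chromosome 15 cluster, miR-92a-3p took 49.0% (Wilson 95% interval 47.7 to 50.2), 42.8% (41.2 to 44.5) and 40.4% (39.4 to 41.4) in Control. In EPD it took 50.7% (49.6 to 51.7), 51.3% (49.8 to 52.7) and 50.7% (49.5 to 51.8). In LPD it took 74.9% (73.2 to 76.6), 86.4% (84.8 to 87.8) and 65.6% (62.3 to 68.8). The intervals cover counting error only and are too narrow where reads repeat the same molecules, as the estimates above give for LPD. Each LPD library lay above all others (exact permutation p = 0.1 against either group, two-sided, the smallest possible). The EPD libraries also lay above all Control libraries, by 6.80 points on average (50.9 against 44.1%, exact permutation p = 0.1), beside 31.6 points for LPD against Control.

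Of the summed counts of these 8 products miR-19b-3p made up 37.1 ± 5.49% in Control, 33.6 ± 1.12% in EPD and 8.51 ± 3.70% in LPD (SD, n = 3 each). The share of miR-20a-5p was 12.5 ± 2.96%, 10.3 ± 1.13% and 10.4 ± 5.53%, and that of miR-19a-3p 4.08 ± 0.59%, 2.97 ± 0.36% and 3.95 ± 3.83%. Each of the other 4 of the 8 products took at most 1.34% of that sum in any library. All 8 products together took 0.296 to 0.602% of the library in Control, 0.402 to 0.544% in EPD and 0.606 to 0.996% in LPD.

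**Figure D4:**
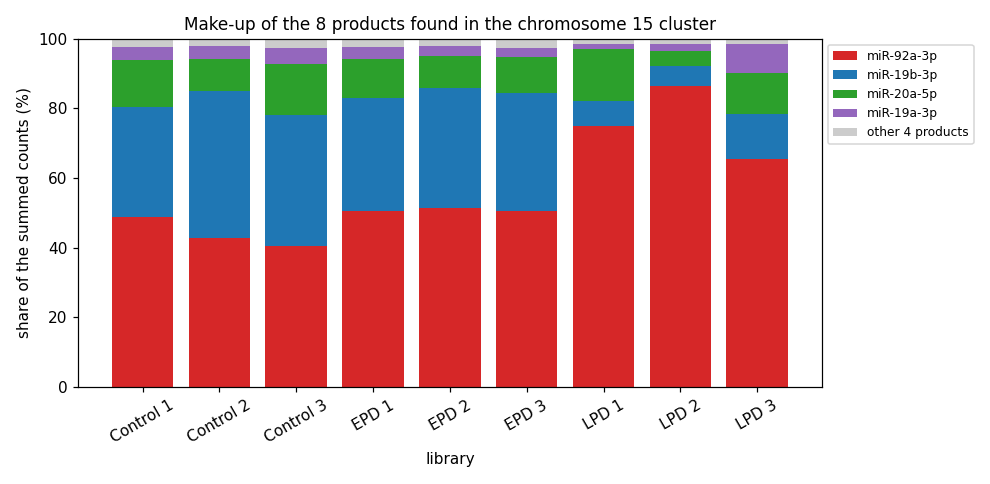
Share (%) of the summed counts of the 8 chromosome 15 cluster products that each product takes, stacked to 100% for each of the 9 libraries; miR-19b-3p and miR-92a-3p include reads from chromosome X copies. The miR-92a-3p part covers 40.4 to 49.0% in Control, 50.7 to 51.3% in EPD and 65.6 to 86.4% in LPD, while the miR-19b-3p part shrinks to 5.74 to 12.7%.

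Arms of 1 hairpin could be compared in Control and EPD only in part. miR-18a-5p had 2.58 to 5.54 counts for each count of miR-18a-3p in Control and 2.75 to 4.65 in EPD. miR-92a-3p outnumbered miR-92a-1-5p by 413, 495 and 268 to 1 in Control and by 418, 180 and 119 to 1 in EPD, on 3 to 29 counts of the minor arm. The counts of miR-92a-3p include its chromosome X copy. In LPD 1959, 1806 and 527 counts of miR-92a-3p stood beside 0 of the minor arm. These came to 53.4, 36.8 and 42.7 estimated molecules of miR-92a-3p. That is below the 119 to 495 counts beside each count of the minor arm elsewhere, so the 0 says nothing of arm use. miR-17-5p, which is encoded in both clusters, had 4.74, 4.52 and 4.13 counts per count of miR-17-1-3p in Control and 7.22, 4.79 and 6.17 in EPD. In LPD it had 29, 0 and 15 counts beside 8, 28 and 9 of miR-17-1-3p. The 28 counts in LPD 2 came to 0.571 estimated molecules, so a change of the usual arm cannot be read from them.

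The paralogues and seed relatives gave a wider view. Of 20 listed products (the other arms of both clusters, the miR-106b/25 cluster, miR-92b and miR-32), 18 were in the table and 10 passed the filter. In EPD against Control 0 of these 10 were called, in LPD against Control 0 higher and 3 lower, and in LPD against EPD 0 higher and 4 lower. Over all tested miRNAs 32.7% were lower in either LPD comparison, so these counts show nothing particular to the relatives. The 3 called lower against Control were miR-17-2-3p of the chromosome X cluster and miR-93-3p, both without any LPD count, and miR-106b-5p with 1 LPD count. Their Control means, 30.9, 47.2 and 32.8 CPM, lie above the 9.94 to 19.8 CPM that 3 counts stood for in LPD. They lie below the 244 to 662 CPM of 3 estimated molecules, an estimate that assumes LPD serum had the Control and EPD profile. That estimate cannot show whether these miRNAs fell, so a fall and the lower depth cannot be told apart for them either. Against EPD miR-93-5p was lower as well (-1.10, SE 0.32, edgeR adjusted p = 0.0256). miR-20b-5p, from the same chromosome X cluster as miR-363-3p, had 161, 41 and 217 counts in Control and 0, 0 and 7 in LPD. Like miR-363-3p it was counted in LPD 3 only, and it was not called (log2 fold change -2.90, SE 1.42, edgeR adjusted p = 0.152). The same held for miR-25-5p of the miR-106b/25 cluster, with 0, 0 and 4 LPD counts, so this is not particular to chromosome X. The 7 counts of miR-20b-5p came to 0.568 estimated molecules.

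Within seed families the division of counts differed as well. miR-92a-3p held 16.1 ± 0.74% of the counts of the 5 miRNAs with the seed AUUGCAC (with miR-25-3p, miR-32-5p, miR-92b-3p and miR-363-3p) in Control, 9.53 to 14.3% in EPD and 39.0 ± 9.15% in LPD. All LPD libraries, at 32.1% or more, lay above all others. The EPD libraries lay below all Control libraries (15.3 to 16.7%), while its share of the followed chromosome 15 products was higher in EPD. The largest member, miR-25-3p, was not called in LPD against Control (-0.32, SE 0.37, edgeR adjusted p = 0.543), while miR-92a-3p, which differs from it at 3 of 21 positions, was. miR-19b-3p held 90.0 ± 1.44% of the counts with the seed GUGCAAA in Control, 91.9 ± 1.11% in EPD and 72.4 ± 12.1% in LPD, the rest being miR-19a-3p. miR-20a-5p held 7.42 ± 1.56%, 3.63 ± 0.66% and 11.5 ± 5.73% of those with the seed AAAGUGC, most of which were miR-93-5p. The LPD range of this last share, 5.61 to 17.0%, overlapped with that of Control, 5.69 to 8.71%, while all EPD libraries, at 4.31% or less, lay below it.

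miRNAs with the pattern most like these 2 products were sought by Pearson's r of log2(CPM + 1) over the 9 libraries, among 122 miRNAs with counts in every library and a mean of at least 50 CPM. The closest to miR-92a-3p were let-7a-5p (r = 0.937), let-7d-5p (0.936), miR-150-3p (0.914), the red cell miRNA miR-486 (0.911) and let-7e-5p (0.911). The closest to miR-19b-3p were miR-186-5p (0.951), miR-146b-5p (0.949), miR-125b-5p (0.934), miR-27b-3p (0.917) and miR-140-3p (0.894). The cluster's own products were not among them: for miR-92a-3p, r was 0.39 with miR-20a-5p, 0.138 with miR-19a-3p and -0.814 with miR-19b-3p. These points share library depth and scaling, and the LPD libraries stand apart from the rest in depth.

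The summed level of 6 of 6 listed red cell miRNAs was 85768 to 170897 CPM in Control, 154708 to 398549 in EPD and 236481 to 373724 in LPD. Most of the LPD sum was miR-16-5p (mean 283010 CPM). Of the 6, 1 was called higher and 0 lower in LPD against Control, beside 4.42% and 32.7% of all tested miRNAs. It was miR-486 (2.18, SE 0.65, edgeR adjusted p = 0.0264), and miR-451-5p was not called (0.86, SE 0.67, edgeR adjusted p = 0.357). Also not called were miR-144-3p (2.28, edgeR adjusted p = 0.0511) and miR-16-5p (1.14, 0.066), with all LPD libraries above Control. miR-15b-5p (-0.92, 0.149), with all LPD libraries below Control, was not called either. The change was positive for 5 of the 6 red cell miRNAs, beside 90 of all 294. In LPD against EPD 0 were higher and 1 lower, miR-15b-5p. EPD 1 had the highest red cell sum of all 9 libraries and a miR-92a-3p level of 3145 CPM, below the 3 LPD values, and a ratio of miR-92a-3p to miR-19b-3p of 1.56. An index of red cell lysis, log2 of miR-451-5p over miR-23a-3p, was -4.58 to -2.81 in Control, -4.01 to -1.35 in EPD and -3.37 to -2.58 in LPD. The 6 listed platelet miRNAs summed to 114700 to 142320 CPM in Control and 76122 to 118145 in LPD, and the 6 leukocyte miRNAs to 58383 to 67328 and 41112 to 55275. In LPD against Control 2 of the platelet miRNAs were called higher and 2 lower, and of the leukocyte miRNAs 0 higher and 1 lower, against the same shares of all miRNAs. In EPD the platelet sum was 116770 to 209868 CPM, and the leukocyte sum, 77573 to 91929 CPM, lay above all Control libraries. The defining markers of these cell types, miR-451-5p and miR-486, miR-223-3p and miR-150-5p, had counts in every library. The part of these cell types in the changes of miR-92a-3p and miR-19b-3p was not tested.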

How the data were processed

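Small RNA libraries were made from rat serum with the QIAseq miRNA kit, per the labels' protocols. The values deposited by the authors are raw read counts per mature miRNA, and 0 values differed between the series table and the single-library files. The submitters' processing notes name the build mRatBN7.2. How reads were aligned and counted, and whether molecular identifiers were used, is not given in the sources used here. RefSeq sequences are from GRCr8.

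miRNAs were kept by filterByExpr (at least 10 counts, 15 in total), leaving 294. The 3 groups were fitted together with edgeR 4.0.16 (TMM scaling, robust quasi-likelihood test, no covariates), with Benjamini-Hochberg adjustment over all 294 and a threshold of 0.05. Ratios used log2((count + 0.5)/(denominator + 0.5)) of all miRNAs in limma 3.58.1. DESeq2 1.42.0 and limma-voom were alternatives. Between replicates of a group, chi-square divided by its degrees of freedom was 29.9 or more. Titles name separate samples, and p-values measure only how these samples vary, which may be technical. The spread was estimated over all groups together. The members, lists and denominators were chosen with earlier results of these data known. All 9 members are named, with listed relatives that were called or share a seed, miR-25-5p, and the 5 miRNAs closest to miR-92a-3p and to miR-19b-3p. Lists of hepatocyte miRNAs (1 of 4 lower in LPD against Control) and muscle miRNAs (0 of 3 called) were also counted. Summed hepatocyte miRNAs were far higher in Control 2 (696990 CPM) than in the other libraries (at most 56412).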

Additional observations from a re-analysis of the deposited data

How the results depend on the processing

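miR-92a-3p and miR-19b-3p in LPD against Control, and their ratio in both LPD comparisons, kept direction and call under every alternative run (log2 fold changes 1.29 to 2.02 and -1.69 to -1.26, ratio changes 2.63 to 3.40 and 2.28 to 3.05). In EPD against Control 0 of the 9 were called under any alternative. The number of the 9 called in LPD against Control was 4, but 2 among miRNAs counted in every library, where only 5 of the 9 were tested, and 2 on counts per estimated molecule, where 7 were tested. In LPD against EPD it was 4, but 1 and 2 under those alternatives. With single libraries left out it was 3 to 5 in both. Called ratios to miR-20a-5p numbered 2 in LPD against Control, but 0 with a prior of 1 and among miRNAs counted in every library, 1 without trend and robust fitting and 1 with only the 2 groups fitted (0 to 3 with a library left out). In LPD against EPD they numbered 3, but 1 with a prior of 1, 1 among miRNAs counted in every library and 1 on counts per estimated molecule (1 to 4 with a library left out). Called ratios to miR-19b-3p numbered 2 in LPD against Control, all higher, but 4 with a smaller prior (2 higher and 2 lower), 4 without trend and robust fitting, 4 among miRNAs counted in every library, 1 with only the 2 groups fitted and 8 on counts per estimated molecule (1 to 3 with a library left out). In LPD against EPD they numbered 3, all higher, but 5 with a smaller prior (3 higher and 2 lower) and 8 on counts per estimated molecule (1 to 4 with a library left out). On counts per estimated molecule 197 of all 293 miRNAs were called in LPD against Control and 204 of 293 in LPD against EPD. The 8 called there thus show nothing particular to the cluster. Among miRNAs counted in every library 67 of 123 were called in LPD against Control, where only 4 members were tested. Ratios on counts per estimated molecule were chosen after seeing the data. The cause of these shifts was not tested.

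Among changes that were not called, the sign turned in EPD against Control with no filter for miR-18a-5p (0.00778), miR-18a-3p (0.032) and miR-17-1-3p (0.0061), and in LPD against EPD for miR-18a-5p with RLE size factors (0.18) and DESeq2 (0.18). For miR-19a-3p to miR-20a-5p in LPD against Control it turned on counts per estimated molecule (0.20). With a library left out, EPD against Control ranged from -0.56 to 0.11 for miR-18a-5p, -0.29 to 0.12 for miR-18a-3p, -0.26 to 0.25 for miR-17-1-3p and -0.054 to 0.35 for miR-92a-3p. LPD against Control ranged from -0.088 to 0.73 for miR-20a-5p, -0.065 to 0.82 for miR-19a-3p and -2.42 to 0.43 for miR-18a-5p, and LPD against EPD from -2.39 to 0.46 for miR-18a-5p. Ratios to miR-20a-5p ranged from -0.079 to 0.43 for miR-19b-3p in EPD against Control. In LPD against Control they ranged from -0.66 to 0.85 for miR-19a-3p and -0.55 to 1.38 for miR-17-1-3p, and in LPD against EPD from -0.46 to 1.05 and -0.78 to 1.15. Ratios to miR-19b-3p in EPD against Control ranged from -0.43 to 0.079 for miR-20a-5p and -0.18 to 0.28 for miR-17-1-3p. Pairs of products whose log2 ratios did not overlap numbered 1 to 4 of 6 in EPD against Control.

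Replicate numbers are shared between groups in the titles. Same-numbered libraries did not deviate together (correlations of -0.089 to 0.063 over 9 pairs, beside -0.083 to 0.126 over 18 pairs of other numbers). With 3 libraries in each group this check cannot exclude that same-numbered samples share a batch. With the replicate block 0 of the 9 were called in EPD against Control and 4 in each LPD comparison. Ratios to miR-20a-5p were called for 0, 2 and 3 of the 8 other members and ratios to miR-19b-3p for 0, 2 and 2, and the ratio of miR-19a-3p to miR-19b-3p in LPD against EPD was not called (2.03, adjusted p = 0.084). Depth limits miR-18a-3p and miR-92a-1-5p most, which had no count in LPD.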
